A study of Mus musculus with 32 samples.

Results

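Among the 6 neurosphere cultures labelled as MYC-overexpressing mouse brain tumours, replicates 4 and 5 carried high Neurod1 RNA and replicates 1, 2, 3 and 6 did not. The split was made on measured values: the Neurod1 probe set with the highest mean (10484276) stood above 8 on the log2 scale in 2 arrays and below 8 in 4, of 32 arrays in the series. The MYC arrays nearest to the threshold were replicate 4 above it at 10.55 and replicate 3 below it at 3.85, so neither was borderline. Because this value chose the arrays, every difference between the 2 and the 4 arrays is given as a description with no test. All 32 cultures came from p53-deficient cells of the strain B6;129-Trp53tm1Brd, grown from the wall of the postnatal lateral ventricle, given oncogenes and transplanted into the brain. Tumour cells that still carried the transgene were sorted and grown again as spheres before RNA extraction, so all cells measured had passed through culture.

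The MYC cultures (n = 6), like those given MYC with the Polycomb genes Ezh2 (MYC+Ezh2, n = 5) or Bmi1 (MYC+Bmi1, n = 3), came from tumours labelled primitive neuroectodermal tumour (PNET). The other cultures came from gliomas given HRAS (n = 5) or HRAS with Bmi1 (n = 2), from tumours labelled AT/RT-like given HRAS and MYC together (n = 7), and from tumours given MYC and then HRAS (n = 2) or HRAS and then MYC (n = 2). Expression was read on Affymetrix Mouse Gene 1.0 ST arrays, 1 per culture, as log2 values normalised by the robust multi-array average (RMA), and 19938 genes were analysed. The labels do not say whether replicates were separate tumours, animals or passages of 1 culture, so any spread or p-value refers to these arrays and may be technical. The number of arrays limits the precision throughout. In bulk RNA, fewer cells of a type and less RNA per cell cannot be told apart.

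Neurod1 is a basic helix-loop-helix (bHLH) transcription factor. It pairs with E proteins such as Tcf3 and Tcf12, binds the E-box CANNTG and is known for driving the exit of progenitors into neuronal differentiation. Id proteins hold E proteins inactive and Hes proteins, targets of Notch, repress proneural genes. Sox2 marks neural stem cells, Olig2 marks glial progenitors and a part of forebrain progenitors, and Fabp7 marks radial glia. Nhlh1 is a bHLH factor of newly born neurons, and Stmn2 encodes a tubulin-binding protein of growing axons.

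The sequences upstream of 2 genes high and 2 genes low in replicates 4 and 5 are shown because the proteins of this family bind the E-box. Each is the run of 250 bases before the annotated start in the RefSeq promoter table (GRCm38.p6), read 5′ to 3′ on the gene's strand, with any CANNTG in capitals. Neurod1 lies at chr2:79456637-79456886, minus strand, and Nhlh1 at chr1:172057597-172057846, minus strand. Sox2 lies at chr3:34649745-34649994, plus strand, and Olig2 at chr16:91225300-91225549, plus strand.
Neurod1: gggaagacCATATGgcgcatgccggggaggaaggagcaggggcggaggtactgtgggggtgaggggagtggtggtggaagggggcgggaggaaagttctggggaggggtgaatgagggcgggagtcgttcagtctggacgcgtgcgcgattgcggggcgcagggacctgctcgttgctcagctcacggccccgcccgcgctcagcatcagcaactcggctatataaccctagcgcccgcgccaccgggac
Nhlh1: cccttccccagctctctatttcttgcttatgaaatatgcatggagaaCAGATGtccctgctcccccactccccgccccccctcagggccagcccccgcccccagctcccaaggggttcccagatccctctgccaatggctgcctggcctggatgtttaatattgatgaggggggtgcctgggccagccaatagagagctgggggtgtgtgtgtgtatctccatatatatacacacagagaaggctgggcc
Sox2: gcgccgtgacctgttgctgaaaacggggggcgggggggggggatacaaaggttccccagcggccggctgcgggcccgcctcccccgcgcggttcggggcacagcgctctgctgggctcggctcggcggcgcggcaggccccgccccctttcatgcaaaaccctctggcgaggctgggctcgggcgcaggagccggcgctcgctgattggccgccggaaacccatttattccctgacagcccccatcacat
Olig2: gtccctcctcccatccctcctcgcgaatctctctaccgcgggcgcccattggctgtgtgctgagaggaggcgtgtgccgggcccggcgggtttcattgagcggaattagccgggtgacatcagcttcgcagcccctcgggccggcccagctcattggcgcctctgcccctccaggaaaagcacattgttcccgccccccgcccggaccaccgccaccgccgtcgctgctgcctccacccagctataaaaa

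The Neurod1 window held 1 E-box, CATATG, whose first base lies 242 bases before the start, and the Nhlh1 window held 1, CAGATG, at 203 bases before the start. No CANNTG was found in these windows of Sox2 and Olig2, which says nothing about binding elsewhere. Both strands were searched, and CANNTG takes in each of the other motifs. The motif CAGATG was present in 13.6% of 353 windows of the genes high by over 1 log2 unit in replicates 4 and 5 (defined in the account of the largest gaps), in 15.8% of 265 windows of the genes low by that margin and in 11.9% of 19116 windows of all measured genes. For CANNTG these shares were 65.4%, 61.5% and 62.1%. CATATG stood in 2.27%, 1.13% and 2.51%, CAGCTG in 13.3%, 15.8% and 12.7%, and CACGTG, the motif bound by MYC with MAX, in 5.38%, 6.04% and 7.00%. The windows of the genes high in replicates 4 and 5 thus held each motif at a share within a few percentage points of that of all measured genes. The 353 windows came from 252 genes, the 265 from 196 and the 19116 from 15563. Genes with several windows counted more than once, and genes without a window were left out.

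The 6 marker genes were read first in each MYC array, with values in the order of replicates 1, 2, 3, 4, 5 and 6 here and below. Neurod1 stood at 3.62, 3.39, 3.85, 10.55, 10.83 and 3.54. Nhlh1 (probe set 10360202) stood at 4.52, 4.24, 4.36, 7.76, 7.77 and 4.17, so replicates 4 and 5 were nearly equal and the other 4 lay 3.23 or more below them. Stmn2 (probe set 10490818) stood at 4.81, 4.14, 5.18, 9.25, 9.23 and 5.75, again without overlap. Replicate 6 had the highest Stmn2 level of the 4 low arrays.

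The progenitor markers ran the other way. Sox2 (probe set 10491477) stood at 11.05, 11.38, 10.74, 4.85, 6.62 and 11.58, which puts replicates 4 and 5 below the rest by 4.12 or more. Olig2 (probe set 10436823) stood at 10.57, 9.49, 10.40, 5.02, 5.17 and 10.10. For Fabp7 (probe set 10363224) the values were 11.35, 10.88, 11.09, 4.54, 6.42 and 12.23. Replicate 5 kept more Sox2 and Fabp7 RNA than replicate 4, and neither gene overlapped between the 2 and the 4 arrays.

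**Figure D1:**
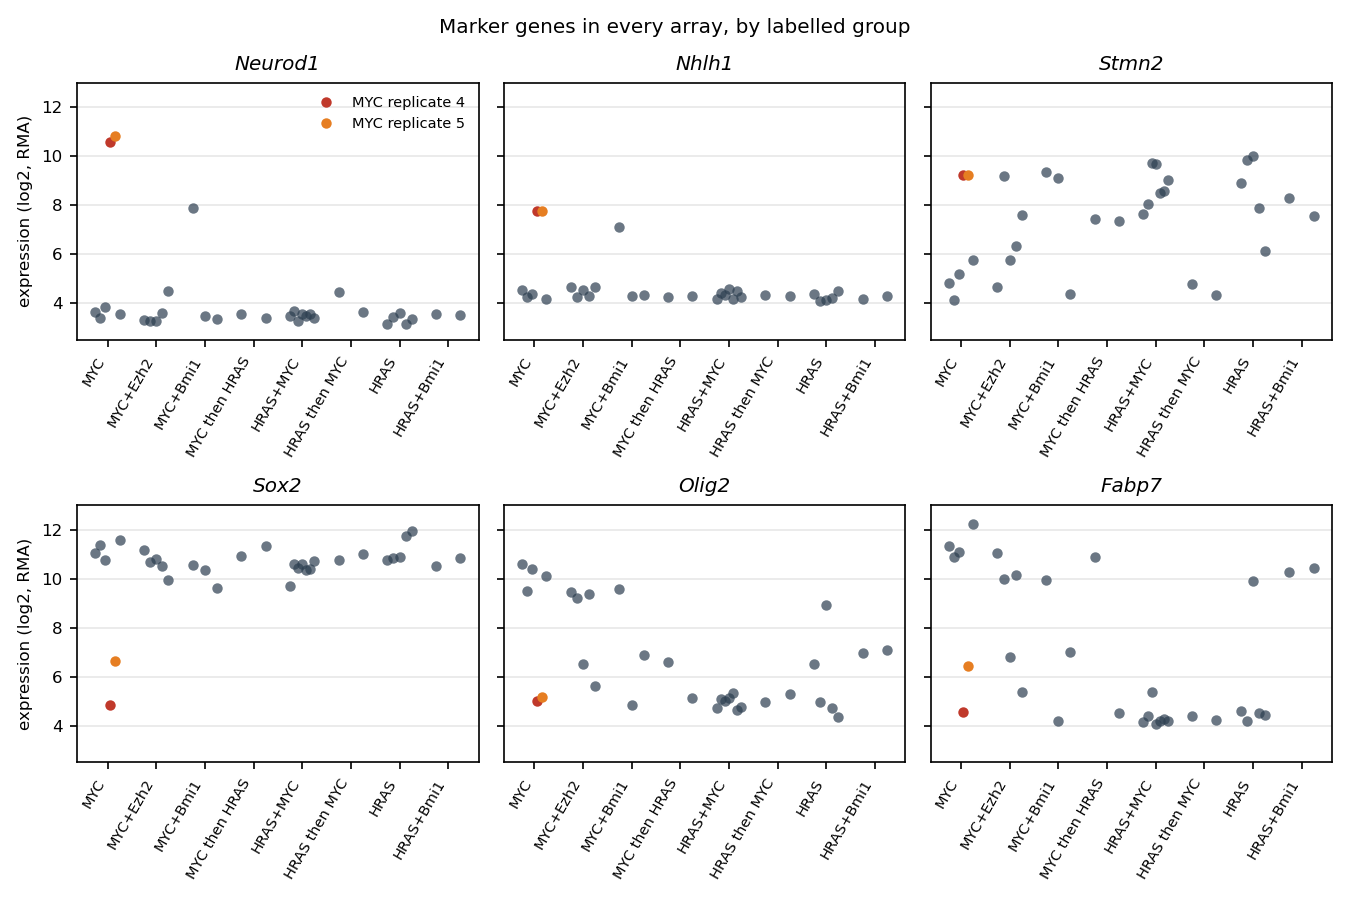
Log2 expression (RMA) of 6 marker genes in all 32 arrays, 1 point per array, by labelled group, with MYC replicates 4 and 5 in colour. Replicates 4 and 5 stand alone at the top for Neurod1 (10.55 and 10.83) and alone at the bottom for Sox2 (4.85 and 6.62), while their Stmn2, Olig2 and Fabp7 levels are also found in other groups.

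The label of a neuronal state held for a part of the usual neuronal markers only. Dcx, a microtubule protein of migrating neuroblasts, stood at 5.19, 6.37, 8.11, 8.67, 8.98 and 9.70, with replicate 6 above both Neurod1-high arrays. Tubb3, the neuronal beta-tubulin, stood at 8.30, 8.43, 8.48, 9.38, 9.66 and 9.49, and Elavl4 at 6.81, 7.35, 7.60, 7.16, 8.05 and 8.55, so both overlapped. Elavl3, an RNA-binding protein of neurons, did not overlap (7.51, 7.72, 7.26, 9.77, 10.28 and 8.33). Rbfox3, which encodes the nuclear antigen of mature neurons, was also highest in replicates 4 and 5 (5.97, 5.89, 5.72, 8.32, 7.91 and 7.02). In MYC+Ezh2 and MYC+Bmi1 arrays with low Neurod1, Dcx reached 11.41 and Tubb3 10.82, above replicates 4 and 5.

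To describe all genes on the same footing, a gap was taken per gene as the lowest value of 1 set minus the highest of the other, so that no mean over arrays chosen by their values was needed. By a gap over 1 log2 unit, 336 genes (1.69% of 19938) were higher in replicates 4 and 5 and 249 (1.25%) were lower. By any gap above 0, 2934 genes (14.7%) were higher and 3255 (16.3%) lower. Leaving out replicate 4 raised the counts over 1 to 530 and 407, and leaving out replicate 5 to 750 and 383, since a single array is easier to set apart.

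After Neurod1 (gap 6.70), the largest gaps upward belonged to genes of several functions. Ppp2r2c, a regulatory subunit of protein phosphatase 2A, stood at 4.95, 5.12, 4.93, 11.36, 10.49 and 5.17, a gap of 5.32. The amino acid transporter gene Slc38a4 stood at 4.79, 4.73, 5.17, 9.52, 11.37 and 5.32, with replicate 5 well above replicate 4. Hpca, a neuronal calcium sensor, stood at 5.41, 5.72, 5.96, 10.01, 10.37 and 6.61. These 3 genes thus showed no overlap and gaps of 3.40 or more.

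The 20 largest gaps upward included 3 ion channel genes. Chrna3, a nicotinic acetylcholine receptor subunit, stood at 4.63, 5.23, 4.93, 10.98, 8.45 and 4.96. Scn11a, a voltage-gated sodium channel, stood at 4.19, 4.40, 4.42, 7.93, 7.98 and 4.43, and Gabra4, a GABA-A receptor subunit, at 4.72, 4.74, 4.94, 9.07, 9.04 and 5.77. Among the others, Stra6, the cell surface receptor for retinol-binding protein, stood at 5.95, 5.92, 5.57, 10.10, 10.50 and 6.82. Cbln1, a secreted organiser of synapses, stood at 5.22, 5.51, 5.19, 8.87, 9.29 and 5.41. The remaining genes of the 20 were Gsg1l2, Chst15, Frmd3, Ptger3, Stmn2, Npr3, Clmp, Tbx15, Mmp24, Nhlh1 and Fgf15, with gaps between 3.22 and 4.45.

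Downward, the largest gaps also belonged to genes of several functions. Acss1, a mitochondrial acetyl-CoA synthetase, stood at 10.75, 10.85, 10.37, 5.31, 5.62 and 10.33, a gap of 4.71. Ednrb, the endothelin receptor of glial progenitors, stood at 10.21, 10.23, 9.60, 4.78, 5.01 and 10.22. Vcan, a chondroitin sulphate proteoglycan of the matrix, stood at 9.81, 9.52, 9.69, 5.17, 4.12 and 9.10. In each of these genes replicates 4 and 5 lay below all 4 low-Neurod1 arrays by 3.93 or more.

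Other genes of the 20 largest gaps downward act at the cell surface. Bcan, another matrix proteoglycan, stood at 10.64, 10.59, 10.57, 6.66, 6.46 and 11.51. The growth factor pleiotrophin, Ptn, stood at 11.39, 11.05, 11.00, 7.68, 7.14 and 11.26, and its receptor phosphatase Ptprz1 at 10.73, 10.66, 10.64, 7.34, 6.78 and 11.09, so the ligand and its receptor were low in the same 2 arrays. Lpar6, a lysophosphatidic acid receptor, stood at 8.92, 8.49, 9.50, 4.37, 4.43 and 9.18. The others were Fabp7, Jam2, Plpp3, Olig2, Sox2, Prkcq, Olig1, Zcchc24, Acsbg1, Itgb8, Scrg1, Lmo3 and Cdh20, with gaps between 3.29 and 4.46.

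**Figure D2:**
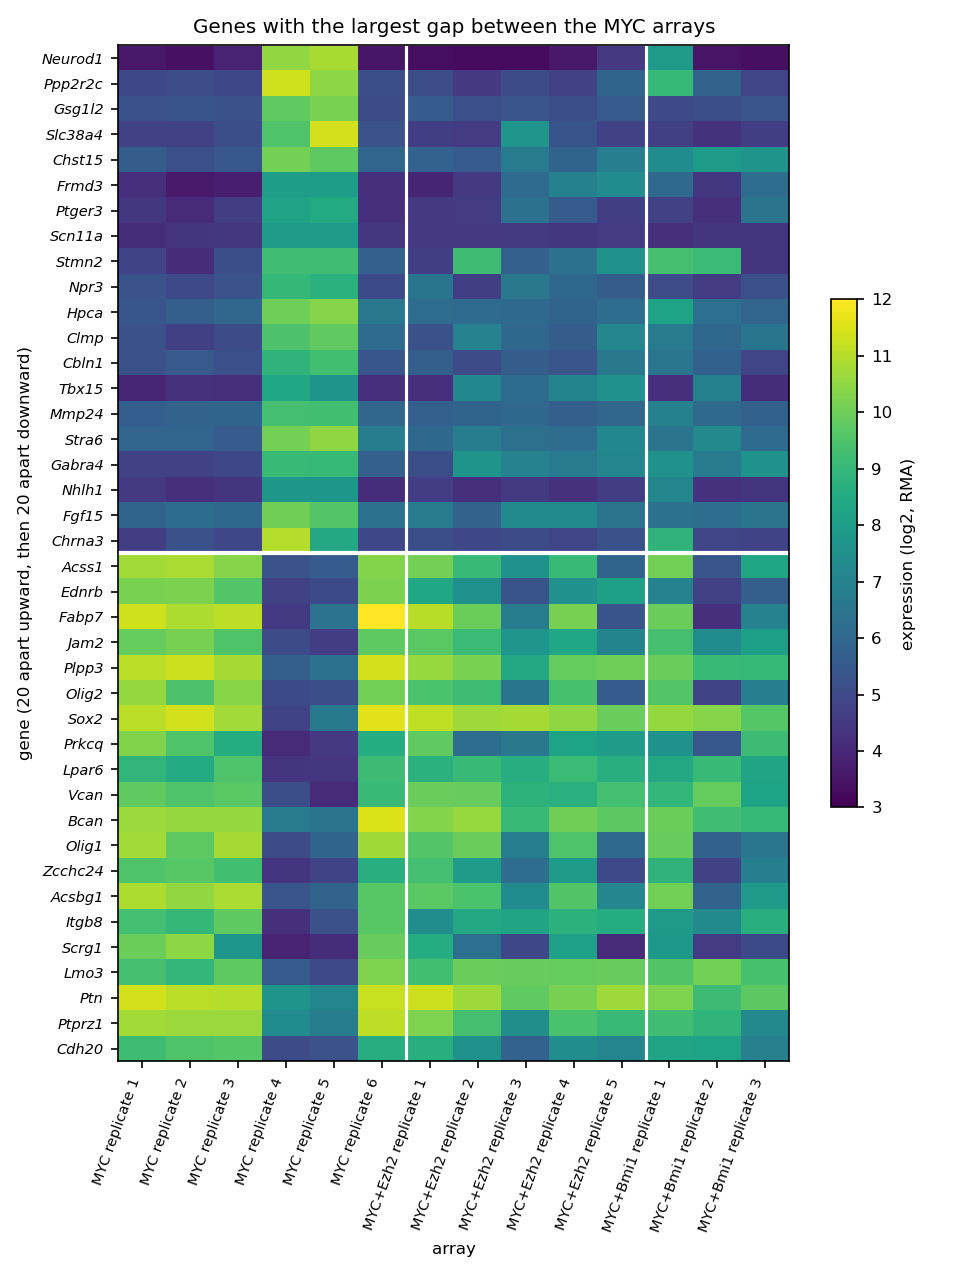
Log2 expression (RMA, colour) of the 20 genes with the largest gap upward and the 20 with the largest gap downward, in 14 arrays (6 MYC, 5 MYC+Ezh2, 3 MYC+Bmi1). MYC replicates 4 and 5 hold the high block above and the low block below, and MYC+Bmi1 replicate 1 shares high Neurod1, Ppp2r2c, Stmn2, Nhlh1 and Chrna3 with high Sox2 and Olig2.

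Of 16 measured proneural and neuronal bHLH factors, 4 (25%) were higher by over 1 (Neurod1, Nhlh1, Neurod6 and Nhlh2) and 1 (6.25%) was lower. Over all genes these shares were 1.69% and 1.25%. Neurod1 chose the arrays, so its own place among the 4 was fixed by the split. Neurod6, a relative of Neurod1 in cortical neurons, stood at 2.93, 2.49, 2.65, 5.70, 6.26 and 2.71, and Nhlh2 at 4.11, 3.90, 4.14, 6.55, 6.56 and 4.44, so both were set apart by 2.11 log2 units or more. The gene lower was the partner Tcf12, at 11.72, 11.71, 11.75, 9.91, 9.96 and 11.17, while the partner Tcf3 differed by 0.10 at the gap. The factors that act before Neurod1 in many lineages were not set apart upward: Neurog2 stood at 5.31, 5.02, 5.26, 5.21, 5.84 and 5.60 and Atoh1 at 5.45, 5.40, 5.08, 5.10, 5.21 and 5.14. The median shift of the whole list was near 0 in every MYC array, between -0.14 and -0.03.

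Among 10 repressors of bHLH factors, 2 (20%) were lower by over 1, against 1.25% of all genes, and none higher. Id3, a dominant negative partner of E proteins, stood at 9.23, 8.93, 9.59, 5.05, 5.65 and 8.45, a gap of 2.79. Hes5, a Notch target, stood at 9.80, 9.72, 9.21, 7.75, 7.48 and 10.40. Id1, Id2 and Hes1 overlapped, with Id1 at 7.49, 7.49, 6.91, 7.73, 7.41 and 6.73.

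Of 24 measured Notch pathway genes, 1 (4.17%) was higher by over 1 and 3 (12.5%) were lower, against 1.69% and 1.25% of all genes. The receptor Notch1 stood at 10.27, 10.45, 10.02, 7.21, 7.96 and 10.21, a gap of 2.06, and the coactivator Maml2 and the target Hes5 were lower with it. The ligand Jag2 stood at 7.47, 7.05, 6.94, 9.27, 9.24 and 6.84 and was the member set apart upward. Thus the receptor was low and 1 ligand high in the same 2 arrays, while the ligand Dll1 was lower by a gap of 0.85.

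Of 39 early neuronal genes, 14 (35.9%) were higher by over 1, against 1.69% of all genes, and 2 (Dpysl3 and Map2) were lower. Gap43, a protein of axonal growth cones, stood at 6.72, 6.11, 5.31, 10.37, 11.43 and 7.70. Nefm, a neurofilament subunit, stood at 5.32, 4.91, 4.63, 8.39, 8.37 and 5.70, and Cntn2, an axonal adhesion molecule, at 5.30, 5.25, 5.25, 8.30, 7.98 and 5.62. All 3 left the 4 other arrays behind by 2.36 or more. Map2, the dendritic microtubule protein, ran against its list at 11.36, 10.98, 11.12, 9.55, 9.80 and 11.39, as did Dpysl3 with a gap of 1.71. The list was chosen with these markers known to differ, so its count is no independent evidence of its direction.

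Of 28 synapse and secretory vesicle genes, 8 (28.6%) were higher by over 1 and none was lower, and 19 were higher by any gap. Over all genes 1.69% were higher by over 1 and 14.7% by any gap. Syp, a synaptic vesicle protein, stood at 6.77, 6.81, 6.92, 10.42, 10.27 and 7.48. Snap25, a protein that acts in vesicle fusion, stood at 5.34, 5.51, 5.61, 9.65, 8.74 and 6.70. Slc17a7, the vesicular glutamate transporter 1, stood at 5.45, 5.28, 5.29, 9.26, 7.48 and 5.08, so replicate 4 was highest and replicate 5 intermediate. The median shift of the list, taken against the median of the 8 MYC+Ezh2 and MYC+Bmi1 arrays, was 1.42 in replicate 4 and 1.23 in replicate 5, but also 0.69 in replicate 6 and -0.36 to -0.31 in replicates 1, 2 and 3. Over all genes that shift lay between -0.06 and 0.00.

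Genes of neuronal subtypes gave a mixed picture. None of 14 GABAergic forebrain genes was set apart by over 1, and 8 were lower by any gap, against 16.3% of all genes. Their median shift was -2.01 and -1.80 in replicates 4 and 5, yet also -1.95 and -1.44 in replicates 1 and 2. Gad1, which makes GABA, stood at 6.60, 7.06, 7.29, 6.33, 6.17 and 9.41, so the spread among the low-Neurod1 arrays was wider than the gap to replicates 4 and 5.

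Among 11 cortical glutamatergic genes, 1 (Neurod6, 9.09% of the list) was higher by over 1, against 1.69% of all genes. Eomes and Tbr1, factors of cortical neurogenesis, lay between 4.44 and 5.47 in all 6 arrays. Of 18 genes of the cerebellar granule lineage, 3 (Cbln1, Reln and En2) were higher and 1 (Zic2) lower. These are 16.7% and 5.56%, against 1.69% and 1.25% of all genes. Reln, a secreted guide of neuronal migration, stood at 5.66, 5.64, 5.66, 8.38, 8.22 and 6.20, and En2, a midbrain and cerebellar homeobox factor, at 5.06, 4.95, 6.49, 7.67, 8.0 and 4.70. The lineage's defining factors Atoh1 and Barhl1 were not among those set apart upward.

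None of 27 photoreceptor and pineal genes was set apart by over 1. By any gap 2 were higher and 6 lower, against 14.7% and 16.3% of all genes. Crx, the factor that defines this lineage, lay between 4.62 and 4.70 in the 6 arrays, and Nrl between 4.23 and 4.47. Otx2, a forebrain and retinal homeobox factor, was higher in replicates 1, 2 and 3 than in the rest (7.80, 8.93, 6.82, 4.26, 4.40 and 4.69). The low-Neurod1 replicate 6 thus lay next to replicates 4 and 5. Of 40 regional identity factors, En2 alone was set apart by over 1. It is 2.5% of the list, near the 1.69% of all genes. By any gap 4 of the 40 factors were higher and 13 lower, against 14.7% and 16.3% of all genes. The median shift of this list was -0.25 and -0.28 in replicates 4 and 5 and between -0.09 and -0.06 in replicates 1, 2, 3 and 6.

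Of 25 neural stem and radial glia genes, 9 (36%) were lower by over 1 and 1 (4%) was higher, against 1.25% and 1.69% of all genes. The 9 were Sox2, Sox3, Sox9, Fabp7, Notch1, Nr2e1, Ednrb, Ptprz1 and Sox21. Sox9, a factor of glial fate, stood at 9.40, 8.70, 9.28, 6.83, 6.81 and 10.30. The member higher was Prom1, which encodes the surface antigen CD133 often used to sort tumour stem cells, at 5.37, 6.67, 4.98, 8.11, 8.33 and 6.13. Nes, the intermediate filament of neural progenitors, differed less (9.75, 9.28, 10.30, 8.27, 8.78 and 9.67), without overlap.

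The Sox family of transcription factors held high and low members. Of 15 measured, 6 were lower by over 1 (Sox2, Sox3, Sox6, Sox8, Sox9 and Sox21), or 40% against 1.25% of all genes. Sox8 stood at 11.10, 10.77, 10.58, 7.38, 7.19 and 10.41, and Sox6, a factor of oligodendrocyte progenitors, at 9.75, 9.21, 9.30, 5.66, 6.33 and 8.65. Sox11, a factor of newly born neurons, was slightly higher in replicates 4 and 5 (10.36, 10.65, 10.65, 11.36, 11.57 and 11.00), whereas Sox4, with a like role, was lower by a gap of 0.69.

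The oligodendrocyte lineage was the list with the highest share lower by any gap among those described. Of 22 genes 11 (50%) were lower by over 1, 20 by any gap and none higher. Over all genes 1.25% were lower by over 1 and 16.3% by any gap. Olig1 stood at 10.76, 9.76, 10.78, 5.11, 5.91 and 10.73. Pdgfra, the growth factor receptor of oligodendrocyte progenitors, stood at 9.49, 10.12, 9.12, 6.51, 5.51 and 10.76, and Omg, a myelin glycoprotein, at 8.45, 7.73, 7.20, 3.91, 4.12 and 7.43. These 3 genes left replicates 4 and 5 at least 2.61 below the others.

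Of 19 astrocyte genes, 5 (26.3%) were lower by over 1 and 14 by any gap, against 1.25% and 16.3% of all genes. Gja1, the gap junction protein of astrocytes, stood at 9.61, 9.84, 9.98, 5.66, 7.22 and 9.49, and Mlc1 at 9.15, 10.19, 8.97, 5.41, 5.84 and 10.93. Gfap, the filament of mature astrocytes, was high in replicate 6 alone (5.45, 5.83, 5.23, 4.71, 4.94 and 9.08), and so was the water channel gene Aqp4 (4.97, 5.45, 5.41, 4.24, 4.41 and 7.52). Replicate 6 thus stood apart within the low-Neurod1 arrays, with a median shift of this list of 2.00 against 0.52 to 0.90 in replicates 1, 2 and 3.

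**Figure D3:**
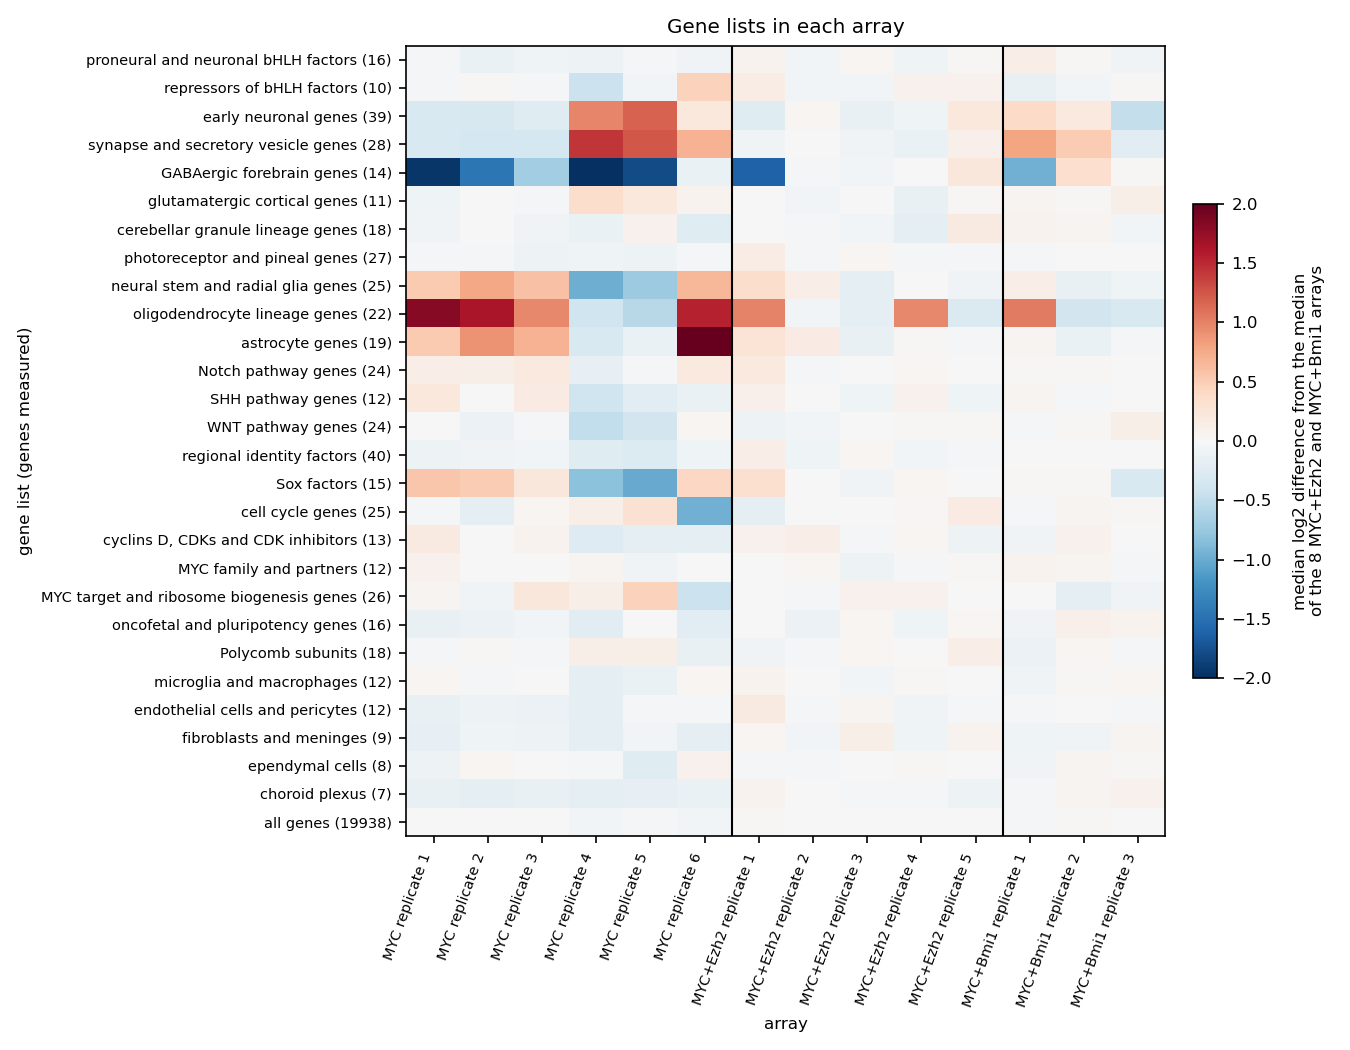
Median log2 difference of each gene list (rows, with the number of genes measured) from the gene-wise median of the 8 MYC+Ezh2 and MYC+Bmi1 arrays, in each of 14 arrays (columns), with colours limited to -2 and 2. Replicates 4 and 5 are high for early neuronal genes (0.97 and 1.19) and low for stem and radial glia genes (-0.98 and -0.72), and the row of all genes is near 0 throughout.

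Of the SHH and WNT pathways, the WNT list held genes set apart. None of 12 SHH pathway genes was set apart by over 1, and the target and receptor Ptch1 stood at 9.78, 9.37, 9.60, 9.27, 9.15 and 9.30. By any gap 1 SHH pathway gene was higher and 4 were lower, against 14.7% and 16.3% of all genes. Of 24 WNT pathway genes, 4 (16.7%) were lower by over 1, against 1.25% of all genes, and none was higher. By any gap 11 were lower, against 16.3% of all genes tested. The secreted modulator Sfrp2 stood at 10.26, 9.71, 9.82, 7.41, 6.95 and 10.30, and the ligand Wnt5a at 7.48, 7.39, 7.05, 4.13, 5.23 and 7.82. Both were low in replicates 4 and 5, together with the receptor Fzd3 and the transcription factor Tcf7l2.

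Proliferation genes were not lower in replicates 4 and 5. Mki67, a marker of cycling cells, stood at 10.45, 10.66, 9.69, 10.74, 10.44 and 9.42, with overlap. Of 25 cell cycle genes, E2f1 alone (4%, against 1.69% of all genes) was set apart by over 1 (7.71, 7.80, 7.88, 9.57, 8.89 and 7.60). By any gap 6 were higher, against 14.7% of all genes, and none was lower. A gene counts as lower only where replicate 6 also lies above replicates 4 and 5, which its low values here make unlikely. The array that stood out in this list was replicate 6, with a median shift of -0.95 against -0.18 to 0.31 in the other 5. Among 13 cyclins, cyclin-dependent kinases and their inhibitors, the kinase gene Cdk6 was higher (7.60, 7.78, 7.59, 9.80, 9.30 and 7.50) and the inhibitor gene Cdkn2c lower (7.73, 8.53, 7.04, 5.66, 5.74 and 7.48). Each is 7.69% of that list, against 1.69% of all genes higher and 1.25% lower.

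The levels of mouse Myc overlapped, at 7.20, 6.12, 7.12, 6.39, 6.97 and 8.23. The labels do not give the species of the added MYC, so this probe set does not check the transgene. None of 12 MYC family genes and none of 26 MYC target and ribosome biogenesis genes was set apart by over 1, and none of 18 Polycomb subunits. As 1.69% of all genes were higher and 1.25% lower, these lists are too small for that to differ from all genes. By any gap 1, 6 and 5 genes of the 3 lists were higher and 1, 0 and 2 lower, against 14.7% and 16.3% of all genes. Ezh2 stood at 10.57, 10.32, 10.78, 10.58, 10.87 and 9.98 and Bmi1 at 9.85, 9.58, 9.99, 9.98, 10.07 and 9.86, each with overlap.

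Of 16 oncofetal and pluripotency genes, 2 (Lin28b and Prom1) were higher by over 1 and 2 (Sall1 and Sall2) were lower. Each share is 12.5%, against 1.69% and 1.25% of all genes. Lin28b, which blocks the maturation of let-7 microRNAs, stood at 3.40, 3.51, 3.81, 6.88, 7.84 and 4.52, a gap of 2.36, while its relative Lin28a overlapped. Igf2bp3, an RNA-binding protein of fetal tissue, stood at 6.07, 6.18, 6.35, 7.24, 9.86 and 5.66, high mainly in replicate 5.

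Markers of other cell types the brain could hold were mostly not set apart. None of 12 microglial and macrophage genes, 9 fibroblast and meningeal genes, 8 ependymal genes or 7 choroid plexus genes was set apart by over 1. As 1.69% of all genes were higher and 1.25% lower, these lists are too small for that to differ from all genes. By any gap 1, 0, 1 and 1 genes of these lists were higher and 4, 1, 2 and 0 lower, against 14.7% and 16.3% of all genes. The defining markers Aif1 (4.13 to 4.53), Cdh5 (4.41 to 4.93), Dcn (3.84 to 4.28), Foxj1 (5.07 to 5.63) and Ttr (3.63 to 4.04) lay near or below the array medians, which ran from 5.59 to 5.79 over all probe sets. Of 12 endothelial and pericyte genes, Cspg4 (8.33% of the list) was lower by over 1, against 1.25% of all genes. It is also a marker of oligodendrocyte progenitors. The median shifts of these 5 lists in replicates 4 and 5 lay between -0.24 and -0.03, against -0.19 to 0.08 in the other 4.

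Replicates 4 and 5 were not copies of each other. Between them, 752 genes (3.77%) were higher by over 1 in replicate 4 and 419 (2.10%) in replicate 5. The sum of 1171 lies within the 215 to 1512 genes by which pairs of the 4 low-Neurod1 arrays differed, and below the 1691 to 2893 genes between the low and high arrays. Replicates 1, 2 and 3 were the closest, and each pair with replicate 6 differed by 1016 genes or more.

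Several neuronal genes were higher in replicate 4 than in replicate 5. Isl1, a homeobox factor of several neuron types, stood at 8.94 in replicate 4 and 5.36 in replicate 5, against 4.51 to 4.91 in the other 4. The calcium-binding protein gene Scgn stood at 8.47 against 3.95 and the synaptic vesicle gene Sv2b at 9.45 against 6.40. Thy1, a surface protein of neurons and fibroblasts, was 10.59 against 7.02, but ranged from 7.02 to 9.57 among the low-Neurod1 arrays.

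Other genes were higher in replicate 5 than in replicate 4. Etv1, Etv5 and Dusp6, known outputs of receptor tyrosine kinase signalling, stood at 5.17, 6.56 and 6.14 in replicate 4 and at 8.11, 9.28 and 8.57 in replicate 5. The low-Neurod1 arrays, at 8.79 to 10.57, 8.10 to 9.83 and 8.12 to 9.57 for these 3 genes, were nearer to replicate 5. Vim, an intermediate filament of progenitors, stood at 9.16 in replicate 4, 11.68 in replicate 5 and 11.52 to 12.38 in the rest. Dlk1, a ligand related to the Notch ligands, was high in replicate 5 alone (10.38 against 6.78 to 7.29 in the other 5).

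Sex-linked genes differed between the arrays of either set. Uty, on the Y chromosome, stood at 7.11, 7.85, 7.70, 7.53, 3.08 and 3.72, so it was high in replicate 4 and low in replicate 5. Xist, the RNA that coats an inactive X, stood at 9.16, 3.79, 7.69, 4.17, 4.48 and 11.05. Replicate 5 was low in both, and replicates 1 and 3 were high in both. The 2 Neurod1-high arrays therefore did not share the Y-linked RNA level.

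Genes on chromosomes 14 and 15 were shifted as groups in replicates 4 and 5. For genes with a mean over 7, the median difference from the 8 MYC+Ezh2 and MYC+Bmi1 arrays was taken per chromosome. On chromosome 14 (293 genes) it was -0.64 in replicate 4 and -0.42 in replicate 5, against -0.13 to 0.10 in the other 12 arrays of the 3 groups. On chromosome 15 (335 genes) it was 0.44 in both, against -0.13 to 0.05. With no filter on the mean, a setting added after the data were seen, the medians were -0.29 and -0.24 on chromosome 14 and 0.12 in both on chromosome 15. On chromosome 14, 89.8% of the genes in replicate 4 and 85.3% in replicate 5 lay below the reference, and on chromosome 15, 82.4% and 83.0% lay above it.

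Smaller shifts were found on other chromosomes. Both replicates lay above all 12 other arrays on chromosomes 1, 2, 6, 8 and 12, as on chromosome 8 (0.19 and 0.30 against a highest of 0.13) and chromosome 6 (0.27 and 0.16 against 0.10). In replicate 4 the median was -0.38 on chromosome 4, where replicate 5 was at 0.22. In replicate 5 it was -0.39 on chromosome 19, where replicate 4 was at 0.09. Replicate 5 was slightly above the reference on most chromosomes, as on chromosome 3 (0.20) and chromosome 5 (0.18). Its shifts downward are measured from that raised base, and its shifts upward, also on chromosome 15, include it. Replicate 4 was above the reference on most chromosomes too, as on chromosome 7 (0.12) and chromosome 9 (0.09). On chromosomes 1, 2 and 12 neither replicate stood far from these levels of its own.

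**Figure D4:**
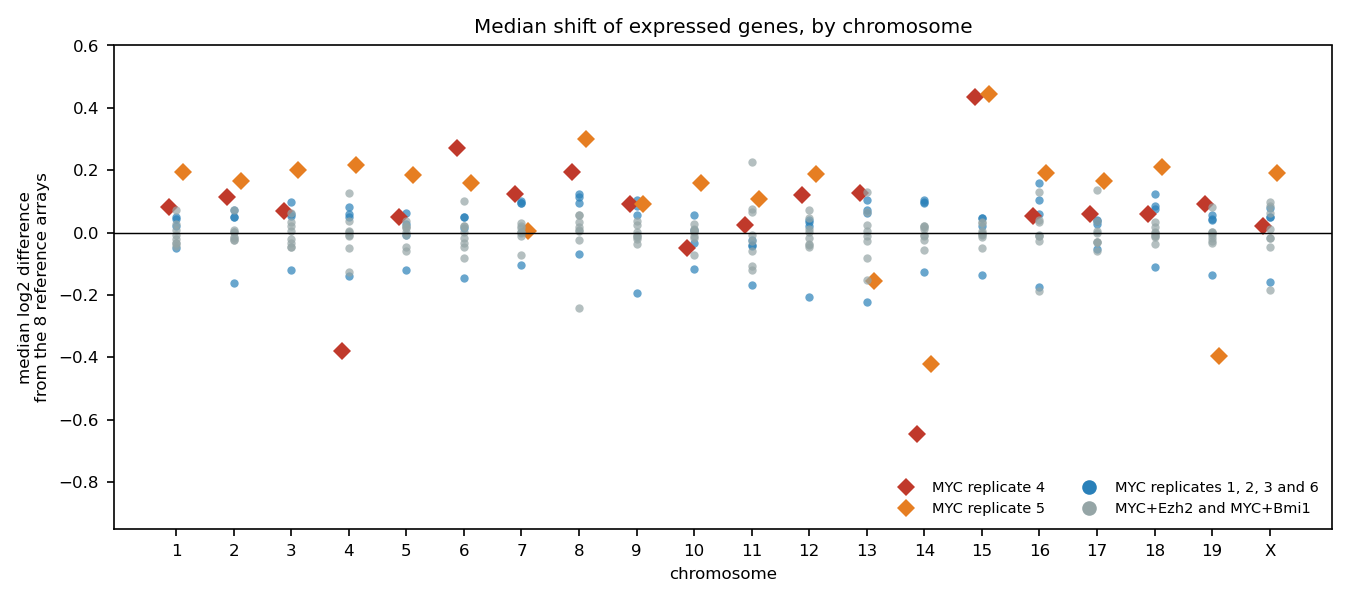
Median log2 difference of genes with a mean over 7 from the 8 MYC+Ezh2 and MYC+Bmi1 arrays, by chromosome, 1 point per array. MYC replicates 4 and 5 (diamonds) are the lowest on chromosome 14 (-0.64 and -0.42) and the highest on chromosome 15 (0.44 and 0.44), and each has a separate low value on chromosome 4 or 19.

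Several genes set apart by over 1 lie on these 2 chromosomes. Chromosome 14 carries Ednrb, Lpar6, Zcchc24, Sox21, Zic2, Wnt5a, Fzd3 and Sall2, all low in replicates 4 and 5, but also Nefm and Nefl, which were high. Chromosome 15 carries Slc38a4 and Npr3, which were high, Myc, which overlapped, and Mlc1, which was low. Of the genes measured on chromosome 14, 3.43% were lower by over 1, against 1.25% of all genes, and of those on chromosome 15, 2.81% were higher, against 1.69%. The next highest share lower was 2.34%, on chromosome 18. The next highest shares higher were 2.63% on chromosome 5 and 2.40% on chromosome 9, close to that of chromosome 15. Without both chromosomes, an alternative chosen after the data were seen, 308 genes were higher and 218 lower. The part of the chromosome shifts in the differences of single genes was not tested.

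Against the whole series, replicates 4 and 5 were the extremes for a small set of genes. In 61 genes (0.306%) both lay above all 30 other arrays by over 1, and in 5 genes (0.0251%) below them. The 61 included Gsg1l2 (4.07 above the next array), Scn11a (3.02), Stra6 (2.89), Neurod6 (2.78), Neurod1 (2.69), Cntn2 (2.34), Nhlh2 (2.00), Slc17a7 (1.87), Isl2 (1.47) and Syp (1.41). The 5 were Lpar6 (3.82 below the next array), Sox2 (2.99), Vcan (1.64), Gnai2 (1.33) and Rtkn (1.02).

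Low Sox2 thus set replicates 4 and 5 apart from every other culture. In the other 26 arrays outside the MYC group Sox2 ran from 9.62 to 11.92, with 10.62 ± 0.440 (SD, n = 5) in MYC+Ezh2 and 10.18 ± 0.499 (SD, n = 3) in MYC+Bmi1. Low Olig2 did not: it stood at 4.95 ± 0.255 (SD, n = 7) in HRAS+MYC arrays, and at 5.61 in MYC+Ezh2 replicate 5 and 4.84 in MYC+Bmi1 replicate 2. Those 2 arrays had low Fabp7 as well (5.35 and 4.21), with Neurod1 at 4.49 and 3.49. Low glial markers were therefore found with low Neurod1 and high Sox2.

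MYC+Bmi1 replicate 1 was the reverse case. Its Neurod1 level of 7.87 was the highest outside replicates 4 and 5, and Nhlh1 stood at 7.11, Stmn2 at 9.36, Chrna3 at 8.87, Ppp2r2c at 9.04 and Reln at 8.19. Neurod4, another member of the Neurod1 family, stood at 7.27, above replicates 4 and 5 (4.02 and 4.96). The progenitor genes were high in the same array, with Sox2 at 10.56, Olig2 at 9.59 and Fabp7 at 9.94. The other 2 MYC+Bmi1 arrays had Neurod1 at 3.49 and 3.37.

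The 2 sets of genes were then followed as levels in arrays the split did not use. The median level of the 336 genes was 8.41 and 8.03 in replicates 4 and 5, values that the choice of genes fixes, and lay between 5.49 and 6.63 in the 26 arrays outside the MYC group, with MYC+Bmi1 replicate 1 the highest. The median level of the 249 genes was 5.82 and 6.05 in replicates 4 and 5. It ranged from 7.04 to 8.29 in MYC+Ezh2, from 6.96 to 7.98 in MYC+Bmi1 and from 6.22 to 6.60 in HRAS+MYC arrays, while the median of all genes stayed between 6.10 and 6.43 in all 32 arrays. Across the MYC+Ezh2 and MYC+Bmi1 arrays the level of the 249 genes varied by more than 1 log2 unit. The lowest was MYC+Bmi1 replicate 2 at 6.96, whose level of the 336 genes was 6.25.

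**Figure D5:**
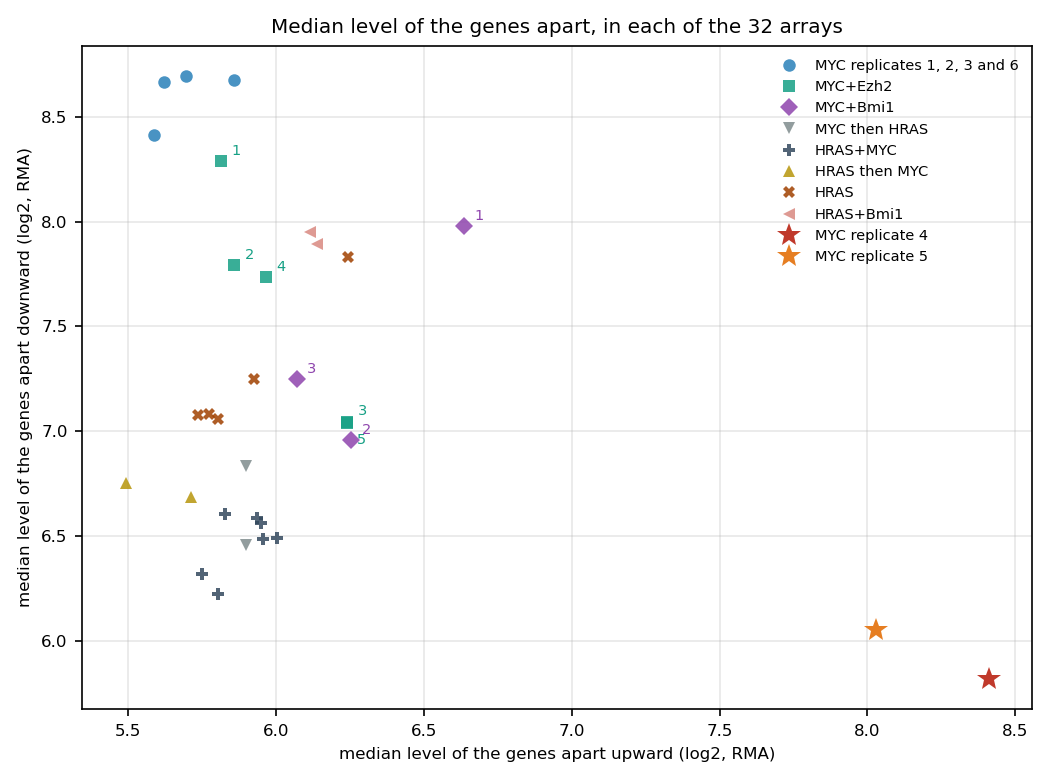
Median log2 level of the 336 genes apart upward (horizontal) and of the 249 genes apart downward (vertical) in each of 32 arrays, with replicate numbers beside the MYC+Ezh2 and MYC+Bmi1 points. MYC replicates 4 and 5 sit alone at the right (8.41 and 8.03), MYC+Bmi1 replicate 1 is the next (6.63) with a high vertical value (7.98), and HRAS+MYC arrays are low on the vertical axis (6.22 to 6.60) without a high horizontal value.

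Whether these genes differ between labelled groups that the split did not use was tested for MYC+Ezh2 (n = 5) against MYC+Bmi1 (n = 3), with the 2-sided limma test on all 32 arrays and Benjamini-Hochberg adjustment over 19938 genes. In that comparison 1 gene (0.00502%) passed as higher, Ezh2 itself, at 12.16 against 10.37, a difference of 1.79 ± 0.187 (SE, adjusted p 7.42e-06), and 0 genes passed as lower. That fit takes its spread in part from the MYC arrays, in which the 336 and the 249 genes were chosen to differ, so its p-values for these genes are not independent of the split. Without the 6 MYC arrays, a fit added after the data were seen, 2 genes passed as higher and 2 as lower, none of them among the 336 or the 249. In that fit 76 of the 336, 30 of the 249 and 1178 of all 19938 genes had an unadjusted limma p under 0.05. With only the 8 arrays of the 2 groups these counts were 59, 19 and 994, and in the main fit 13, 7 and 831. They thus depended on the arrays in the fit. In the fit without the MYC arrays, Neurod1 differed by -1.32 ± 0.599 (SE, adjusted limma p 0.817), Nhlh1 by -0.78 ± 0.373 (0.835) and Sox2 by 0.44 ± 0.290 (0.938). Neurod1 was higher in 1 of 3 MYC+Bmi1 arrays, and without that array its difference was 0.16. With 5 and 3 arrays, this says only that no difference was detected.

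Replicates 4 and 5 also enter the comparisons that use the whole MYC group. MYC+Ezh2 against MYC gave 26 genes higher (0.130%) and 23 lower (0.115%) in the limma test, 0.246% in either direction. MYC+Bmi1 against MYC gave 20 (0.100%) and 10 (0.0502%), 0.150% in either direction. With replicates 4 and 5 left out together, these counts became 57 and 145, and 99 and 146. Other choices moved them as much: without MYC+Ezh2 replicate 1 the first became 145 and 88, and without MYC+Bmi1 replicate 1 the second became 141 and 93. With only the groups compared in the fit they were 1 and 0, and 0 and 1. The 2 comparisons share their MYC arrays, and their counts were not stable to the choice of arrays.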

How the data were processed

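RNA of 32 tumour-derived neurosphere cultures was measured on 1 array each. The deposited values are log2 expression per probe set, made by the authors with RMA (the submitters' processing notes name Affymetrix Expression Console 1.0). The scale was read from the values, which run from 1.44 to 14.5. Quantile normalisation in RMA hides a change common to all genes, and values near the floor understate differences. Of 35557 probe sets, 21789 had 1 gene symbol, and the one with the highest mean was kept per gene (19938 genes). Scan batches were not analysed here. Arrays were grouped by label, and the MYC arrays were split at a Neurod1 value of 8.

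The gap between the 2 sets was described without a test. Labelled groups were compared in 1 fit of 8 group means with limma 3.58.1 (R 4.3.3), 2-sided, with Benjamini-Hochberg adjustment and a threshold of 0.05. Genes were named by a rule: the 6 markers, Myc and Mki67, the 20 largest gaps per direction (without unnamed models, receptors of smell, small RNAs and X or Y linked genes), 4 per list and direction, the defining markers of cell types, and genes that passed in limma. Genes compared between replicates 4 and 5, Neurog2, Atoh1, Neurod4, Notch ligands, Eomes, Tbr1, Lin28a, Gnai2, Rtkn and Isl2 were chosen after their values were seen. The members and the lists were chosen with earlier results of these data known. Replicate numbers shared by MYC+Ezh2 and MYC+Bmi1 arrays were checked as pairs by the correlation of deviations from the group means, which was 0.433, 0.219 and 0.368. Between MYC+Ezh2 and MYC, arrays of the same number gave -0.26 to 0.34. Arrays of different numbers were not compared in this way, and the labels do not say what a number marks. Pairing was therefore not established. The main fit did not use the numbers, and a fit with a replicate block was run as an alternative. Promoters and chromosomes came from RefSeq tables of GRCm38.p6. The steps were tested on simulated data.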

Additional observations from a re-analysis of the deposited data

Results flagged for a closer look

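Chance alone sets about 1 in 20 groups apart by the measure used here, the gap of 1 array to its nearest neighbour over the range of its group, and 5 of 66 groups tested met it. None of the 5 was a MYC array, but the measure looks for 1 array far from its neighbour. MYC replicates 4 and 5 lay close to each other, as in Neurod1 (10.55 and 10.83), so it could hardly flag either. Neurod1 in MYC+Ezh2 replicate 5 stood at 4.49, with the other 4 arrays between 3.27 and 3.60. Fabp7 in HRAS replicate 3 stood at 9.89 against 4.17 to 4.60, and Mki67 in the same array at 9.93 against 8.82 to 9.13. Fabp7 in HRAS+MYC replicate 3 stood at 5.38 against 4.05 to 4.39. Sox2 in HRAS+MYC replicate 1 was the lowest of its 7 arrays at 9.69, with the others between 10.33 and 10.71, and it lay above MYC replicates 4 and 5. Their causes were not tested.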

How the results depend on the processing

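The counts of genes set apart in MYC replicates 4 and 5 (336 higher, 249 lower) became 761 and 558 with a gap over 0.5 and 89 and 66 with a gap over 2. With only genes of a mean over 6 across all arrays, 183 were higher and 211 lower. The filter thus removed a larger part of the 336 than of the 249. Leaving out 1 MYC array gave 350 to 750 higher and 259 to 407 lower. In the limma comparisons, fitting only the 2 groups compared gave 2 and 1 genes for MYC+Ezh2 against MYC+Bmi1, 1 and 0 for MYC+Ezh2 against MYC and 0 and 1 for MYC+Bmi1 against MYC. Leaving the 6 MYC arrays out of the fit, added after the data were seen, gave 2 and 2 for the first. With the replicate block, MYC+Ezh2 against MYC+Bmi1 kept its counts of 1 and 0, MYC+Ezh2 against MYC gave 7 and 2, and MYC+Bmi1 against MYC gave 13 higher. A mean over 6 gave 13 and 9 higher in the 2 comparisons with MYC, and centring each array gave 13 lower in the first and 13 higher in the second. Leaving out MYC replicates 4 and 5 together gave 57 and 145, and 99 and 146. Leaving out 1 array gave 1 to 4 higher and 0 to 8 lower, 4 to 145 and 0 to 88, and 7 to 141 and 2 to 93 in the 3 comparisons, and it moved a count by over 1.5 times for 4 of 8, 11 of 11 and 7 of 9 arrays. In the first comparison these were MYC+Bmi1 replicates 1 (3 and 8 genes), 2 (4 and 3) and 3 (1 and 2) and MYC+Ezh2 replicate 2 (1 and 1). In MYC+Ezh2 against MYC+Bmi1, leaving out 1 array gave differences of -2.09 to 0.16 for Neurod1 and -1.26 to 0.15 for Nhlh1, both above 0 without MYC+Bmi1 replicate 1, and -0.22 to 2.15 for Olig2, below 0 without MYC+Bmi1 replicate 2. With no filter on low values the chromosome 14 medians of replicates 4 and 5 were -0.29 and -0.24 and the chromosome 15 medians 0.12 and 0.12, and with centred arrays the chromosome 15 median of replicate 4 was 0.32; these settings were chosen after the data were seen. Causes of these changes were not tested unless stated. With 2 to 7 arrays a group, small differences could not be detected.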
